A study of Mus musculus with 23 samples.

Results

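The genes that receive an interferon signal and carry it from the cell surface were followed in poly(A) RNA from C2C12, a mouse myoblast line whose cells divide in rich serum and fuse into myotubes once serum is lowered. The set held 10 genes of the 32793 in the deposited tables, taken by symbol: the ligand gene Ifnb1, the receptor chains Ifnar1, Ifnar2, Ifngr1 and Ifngr2, the kinases Jak1, Jak2 and Tyk2, and the inhibitors Socs1 and Socs3. Cells were either control (labelled WT) or Runx1KO (labelled KO). On day 0 they were in growth medium holding 20% FBS, and on days 1, 3 and 6 in differentiation medium holding 2% horse serum. The 23 libraries made 8 groups of 3, with 2 libraries in the WT group of day 0. The days are those of the sample titles, and the series text gives an earlier last day. How Runx1 was altered, whether the line is 1 clone and whether replicates came from separate cultures are not given in the sources used here, so the p-values measure the spread between these libraries, which may be technical.

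Type I interferons such as interferon beta bind a receptor of the Ifnar1 and Ifnar2 chains, which carry the kinases Tyk2 and Jak1. Interferon gamma binds Ifngr1 and Ifngr2, which carry Jak1 and Jak2. The activated kinases phosphorylate Stat proteins, which enter the nucleus and bind the ISRE (interferon-stimulated response element) or the GAS (gamma-activated site) of their target genes. Socs1 and Socs3 are induced by Stat proteins and block the kinases in turn, Socs3 chiefly at receptors that hold the gp130 chain (Il6st).

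Promoter sequences were examined because both inhibitors are targets of the pathway that they restrain. RefSeq windows on GRCm38.p6, from 250 bases before to 50 bases after each start site, were matched for 10 of the 10 genes. Each window was searched on both strands for the GAS letters TTCNNNGAA, the ISRE core (GAAA, any 2 bases, GAAA) and the Runx letters TGTGGT. Over all 32841 windows of 300 bases, 8.3% held the GAS letters, 3.44% the ISRE core and 16.8% the Runx letters. Among the 10 genes, 3 held the GAS letters (Ifnar1, Ifnar2 and Socs3), 1 held the ISRE core (Socs1) and 0 held the Runx letters. Of 15 matched genes in a list of 18 Stat, Irf and interferon-induced genes, here called the signal readout, 3 held the GAS letters, 8 the ISRE core and 3 the Runx letters.

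The Socs1 window is shown beside that of Isg15, an interferon-induced ubiquitin-like modifier from the signal readout, because both hold overlapping ISRE core matches, of which 1 in each gene has the same central letters (CC) and the others differ. Both stretches are the 250 bases before the start site on the minus strand, Socs1 at chr16:10785537-10785786 and Isg15 at chr4:156200819-156201068, with the ISRE core matches in capitals. There are 2 matches in Socs1 and 3 in Isg15, and they begin 83 bases before the start of Socs1 and 78 bases before that of Isg15.
Socs1: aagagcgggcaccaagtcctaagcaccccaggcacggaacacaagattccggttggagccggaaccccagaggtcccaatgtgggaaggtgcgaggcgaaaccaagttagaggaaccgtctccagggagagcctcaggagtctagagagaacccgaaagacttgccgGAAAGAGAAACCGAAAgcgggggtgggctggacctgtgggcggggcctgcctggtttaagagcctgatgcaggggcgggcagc
Isg15: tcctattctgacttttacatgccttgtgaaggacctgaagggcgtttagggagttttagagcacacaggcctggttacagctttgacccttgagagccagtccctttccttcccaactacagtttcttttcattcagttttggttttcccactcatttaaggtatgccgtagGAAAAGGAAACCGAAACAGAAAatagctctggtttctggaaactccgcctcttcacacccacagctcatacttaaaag

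The 3 GAS matches are shown to let their central letters be compared, each with 10 bases on either side and with the match in capitals. They lie at chr16:91485200-91485228 (Ifnar1, plus strand, starting 5 bases before the start site), chr16:91372559-91372587 (Ifnar2, plus strand, 214 bases before) and chr11:117969502-117969530 (Socs3, minus strand, 154 bases before). Distances are from the start site of the RefSeq window. For Ifnar1 and Socs3 the annotated gene span begins upstream of that site, so both of these matches lie inside the span.
Ifnar1: ggcgggggcgTTCACGGAAggggcggggc
Ifnar2: tgccaaggccTTCCTGGAAgaagagagta
Socs3: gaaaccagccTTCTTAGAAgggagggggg
A match is a description of letters, not a measured site.

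Ifnar2 (chr16:91372783-91405589), the interleukin-10 receptor gene Il10rb, Ifnar1 (chr16:91485032-91510523) and Ifngr2 (chr16:91547059-91564007) follow each other within 191.2 kb of mouse chromosome 16. Ifngr1 stands on chromosome 10, Jak1 and Ifnb1 on 4, Jak2 on 19, Tyk2 on 9, Socs1 on 16 and Socs3 on 11. The annotation has Ifnar2 overlapping the lncRNA Gm36587 and Jak1 overlapping Raver2. Use of strand in the counting is not stated, so reads from these overlaps cannot be assigned with certainty.

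Libraries held 22197606 to 23684077 estimated counts each. At that depth 3 counts, the upper limit that a count of 0 allows, corresponded to between 0.126 and 0.140 CPM (counts scaled to library size with TMM factors), for counting error only. Runx1 mRNA went against the label: on day 6 it reached 297 to 319.7 CPM under the KO label and 146 to 165 CPM under the WT label, and it was higher under the KO label on each of the 4 days (log2 fold changes between 0.35 and 1.02). Directions below are therefore those of the labels. Replicate 2 of the KO day 1 group stood apart from its replicates, with chi-square values of 64.5 and 64.9 per degree of freedom, against at most 29.0 for the other pairs. Of 8 myoblast and myotube markers, 5 were detected over 3 counts in WT day 0, 6 in KO day 0 and 8 in every later group, with a summed level of at least 1010 TPM (a level that corrects for gene length). Of 10 immune markers, 4 or 5 were detected over 3 counts in each group. Cd14 had 179 to 401 counts per library, Cd68 13 to 265, Csf1r 2 to 70 and Itgam 3 to 23, while Adgre1 and Siglech had 0 in every library, Ptprc at most 1 and Cd3e at most 2. The 4 endothelial markers summed to at most 0.55 TPM.

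Interferon mRNA was almost absent. Ifnb1 (chr4:88522025-88522794), which encodes interferon beta, had 0 counts in 22 libraries and 1 count (0.12 TPM) in 1 library labelled KO on day 6. It did not pass the filter on low counts and was not tested. A list of 21 ligand genes covered the interferon alpha, beta, gamma, epsilon, kappa, zeta and lambda families. Of these, 16 had a count of 0 in every library, and the 483 entries of genes by libraries summed to 32 counts.

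Ifng, which encodes the ligand of Ifngr1 and Ifngr2, was the only listed ligand above 3 counts in any library. Under the KO label it had 3, 1 and 8 counts on day 6 and 0, 1 and 4 on day 1. It had 0 counts in every library labelled WT, and under the KO label on days 0 and 3. The 8 counts correspond to 0.53 TPM. Ifng did not pass the filter on low counts, so these counts are a description, and no p-value or fold is given. Ifne, which encodes interferon epsilon, had 0 to 2 counts per library. Ifna5 had 2 counts in 1 library labelled WT on day 6, where near-identical Ifna copies could share the reads, and Ifnz had 1 count in 1 library labelled WT on day 3.

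**Figure D1:**
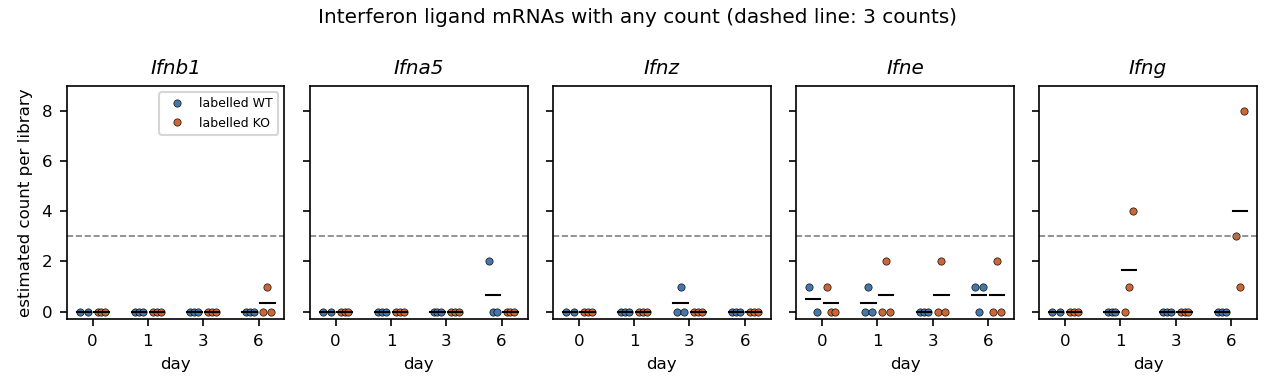
Estimated counts per library (vertical axis) by day (horizontal axis) for the 5 ligand genes with any count; points are libraries labelled WT (blue) or KO (orange), bars are group means and the dashed line marks 3 counts. Only Ifng passes the line, at 4 counts on day 1 and 8 on day 6, both labelled KO.

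The receptors, kinases and inhibitors were expressed in every library. All 9 passed the filter, and none had a count of 0. By length-corrected level, the median over the 23 libraries was 71.5 TPM for Ifnar2, 68.8 for Socs3, 62.8 for Jak1 and 50.8 for Ifngr2. It was 31.6 TPM for Ifnar1, 30.2 for Ifngr1, 25.0 for Socs1, 15.9 for Tyk2 and 11.5 for Jak2. The type I receptor chain Ifnar2 thus stood above its partner Ifnar1, and among the kinases Jak1 stood above Tyk2 and Jak2; these medians were not tested against each other. Over the 8 groups the highest group mean was 1.39 times the lowest for Jak1 and 2.68 times for Socs3, the extremes of the 9, on the CPM scale.

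**Figure D2:**
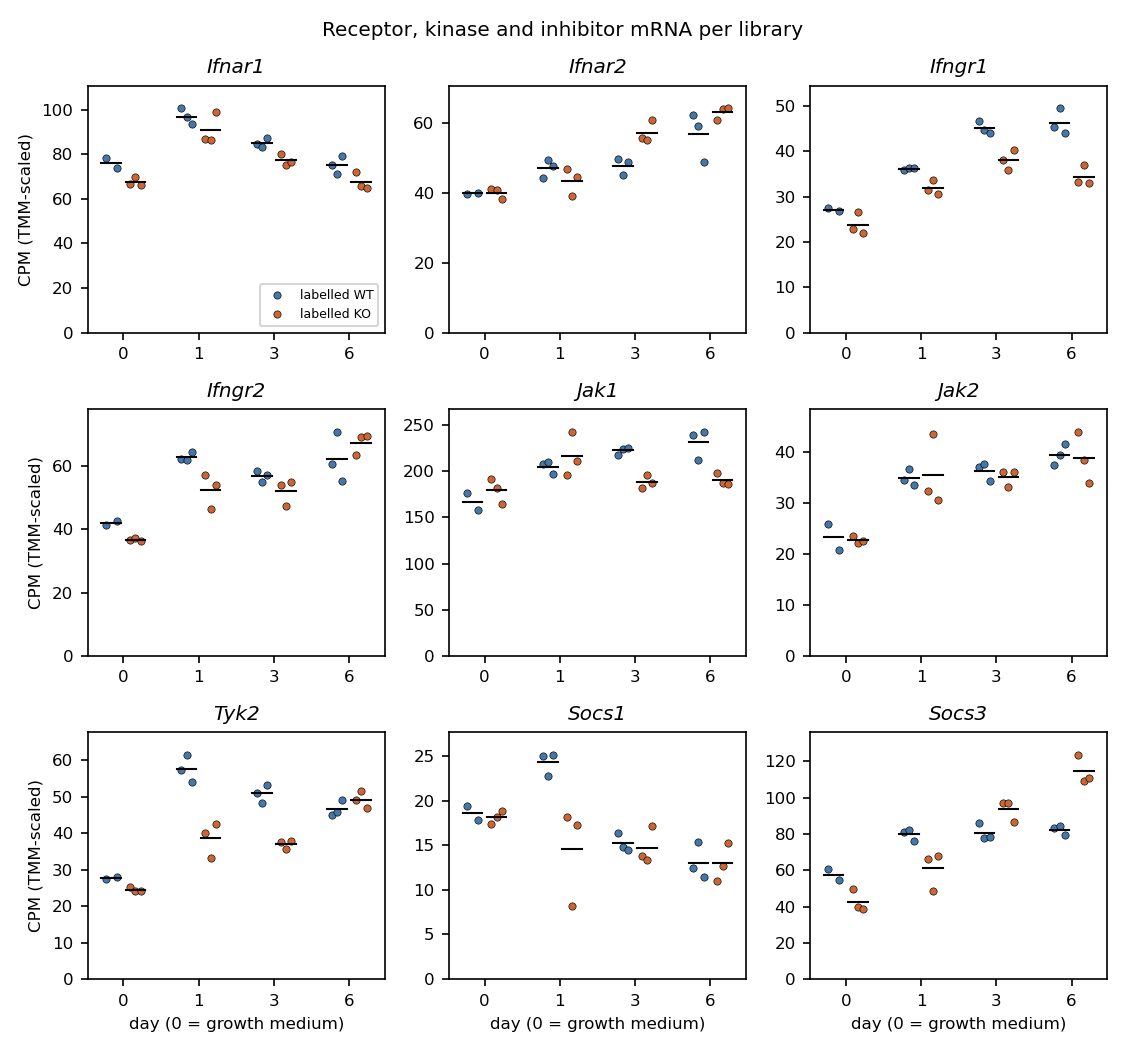
TMM-scaled CPM (vertical axes, each from 0) by day (horizontal axis) for the 9 expressed genes; points are libraries labelled WT (blue) or KO (orange) and bars are group means. Under the KO label Tyk2 is lower on days 1 and 3 and Ifngr1 and Jak1 on day 6, and Socs3 is higher on day 6.

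The first question was how the genotypes differed on each day. Genes were tested by edgeR (quasi-likelihood F-test, Benjamini-Hochberg adjustment over 14187 genes) and called at an adjusted p under 0.05. On day 0, 1 of the 9 tested genes was called (0 higher, 1 lower under the KO label), where 17.5% of all genes were called (7.36% higher, 10.1% lower). On day 1, 4 of 9 were called (0 higher, 4 lower), beside 42.2% of all genes (22.9% higher, 19.2% lower). On day 3, 4 of 9 were called (1 higher, 3 lower), beside 43.2% (24.0% higher, 19.2% lower). On day 6, 3 of 9 were called (1 higher, 2 lower), beside 42.9% (22.0% higher, 20.8% lower). The shares called in either direction are near the background, so these counts are no result about the set. The median absolute log2 fold change of the 9 genes was 0.17, 0.18, 0.21 and 0.15 on days 0, 1, 3 and 6, and that of all tested genes was 0.19, 0.30, 0.29 and 0.28. The signed medians of the 9 genes were -0.17, -0.18, -0.12 and -0.01, beside -0.00, 0.03, 0.04 and 0.00 for all tested genes.

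**Figure D3:**
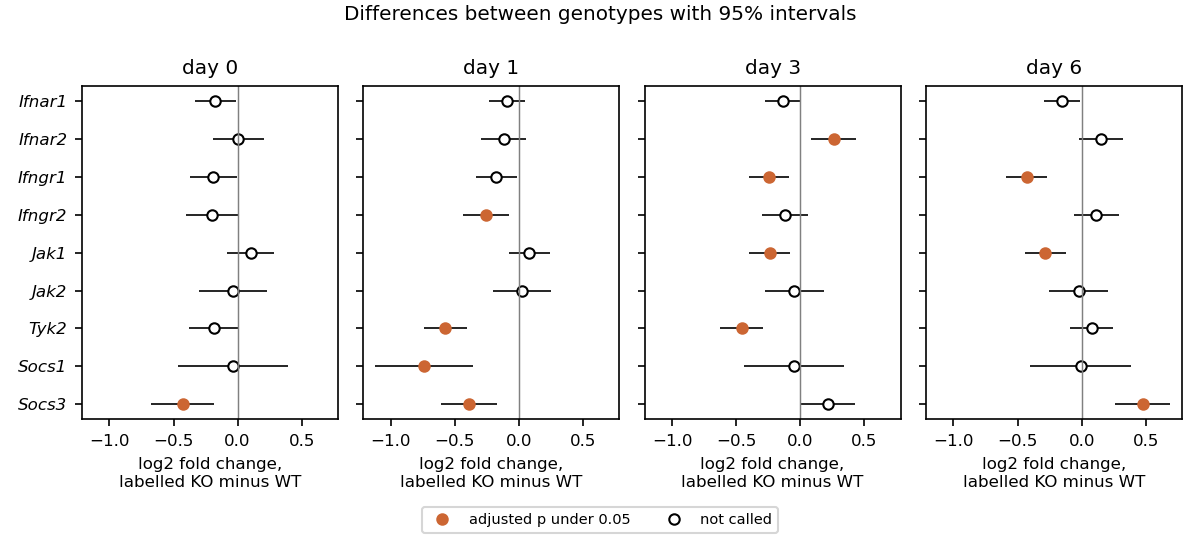
Log2 fold change of the libraries labelled KO over those labelled WT (horizontal axis) with 95% intervals for each gene (vertical axis), by day; filled points have an adjusted p under 0.05. The called differences lie between -0.74 (Socs1, day 1) and 0.48 (Socs3, day 6).

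Ifngr1, the ligand-binding chain for interferon gamma, had the largest called difference of the receptor chains. Its day 6 libraries had 33.4, 37.0 and 33.1 CPM under the KO label and 45.4, 49.5 and 44.2 CPM under the WT label. Every library labelled KO was below every library labelled WT. The log2 fold change was -0.43 (SE 0.077, 95% interval -0.59 to -0.27, edgeR adjusted p = 8.68e-05).

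The day 3 libraries had 38.1, 36.0 and 40.4 CPM of Ifngr1 under the KO label and 46.7, 44.8 and 44.2 CPM under the WT label. With no overlap again, the log2 fold change was -0.24 (SE 0.077, edgeR adjusted p = 0.0127), and it was -0.38 on the TPM scale with 1 added (limma adjusted p = 0.000424). On that scale the median of all genes on day 3 was -0.08, beside 0.04 by edgeR. The day 3 call was lost without replicate 1 of the WT group (-0.22, edgeR adjusted p = 0.0507) and without replicate 2 of the KO group (-0.20, edgeR adjusted p = 0.0651). On days 0 and 1 the values of Ifngr1 were -0.19 and -0.18, with edgeR adjusted p = 0.163 and 0.070. The day 1 value passed the threshold in 7 of 15 alternatives: RLE, library size, a mean count from 50 up, DESeq2, both TPM scales (-0.20 to -0.22) and without KO replicate 2 (-0.24, edgeR adjusted p = 0.0192). The day 0 value passed it without KO replicate 2 (-0.28, edgeR adjusted p = 0.0469).

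Ifnar2, the chain with the longer signalling tail in the type I receptor, was the only receptor chain with a called increase between genotypes. Its day 3 libraries had 55.7, 55.1 and 60.7 CPM under the KO label and 49.6, 44.9 and 48.8 CPM under the WT label, with no overlap. This was a log2 fold change of 0.26 (SE 0.084, edgeR adjusted p = 0.0159). The call was lost without WT replicate 2 (0.18, adjusted p = 0.139), without KO replicate 3 (0.21, adjusted p = 0.0797) and on the TPM scale (0.13, limma adjusted p = 0.147 with 1 added to TPM). On day 6 the libraries had 60.9, 64.0 and 64.1 CPM of Ifnar2 under the KO label and 62.3, 59.0 and 48.7 CPM under the WT label, where the groups overlapped and the difference of 0.15 was not called (edgeR adjusted p = 0.152). On day 1 Ifnar2 was not called (-0.12, edgeR adjusted p = 0.278) but was lower on the TPM scale (-0.20, limma adjusted p = 0.0275 with 1 added), the opposite direction to day 3. Without KO day 1 replicate 2, the library that stood apart, the day 1 value was -0.07 (adjusted p = 0.549).

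Ifngr2, the accessory chain of the interferon gamma receptor, was called on day 1. Its libraries had 57.2, 46.6 and 54.1 CPM under the KO label and 62.2, 62.0 and 64.6 CPM under the WT label. The lowest value belonged to KO replicate 2, the library that stood apart, and the groups did not overlap. This was a log2 fold change of -0.26 (SE 0.086, edgeR adjusted p = 0.0184), and the call was lost without KO replicate 2 (-0.20, adjusted p = 0.0546), without WT replicate 3 (-0.24, adjusted p = 0.0582) and with only the groups compared (-0.28, adjusted p = 0.0612). On day 6 the mean of Ifngr2 was 67.4 ± 3.32 CPM labelled KO against 62.3 ± 7.95 labelled WT (SD, n = 3 each), a difference of 0.11 that was not called (edgeR adjusted p = 0.300) but passed the threshold without WT replicate 2 (0.22, adjusted p = 0.0482). On day 3 Ifngr2 was not called (-0.12, edgeR adjusted p = 0.272). It was called on the TPM scale (-0.27, limma adjusted p = 0.00128 with 1 added), where the median of all genes was -0.08. On day 0 it was not called (-0.20, edgeR adjusted p = 0.191) but was in 4 of 14 alternatives (-0.20 to -0.26).

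Ifnar1, the chain that carries Tyk2, was called on no day. Its log2 fold changes were -0.17, -0.09, -0.14 and -0.15 on days 0, 1, 3 and 6, with edgeR adjusted p between 0.0760 and 0.298. On day 6 the 95% interval ran from -0.30 to -0.01, and the value passed the threshold with library size only (-0.22, adjusted p = 0.0170), without WT replicate 2 (-0.19, adjusted p = 0.0469) and without KO replicate 1 (-0.23, adjusted p = 0.0184). It also passed on day 3 under 5 alternatives, among them DESeq2 (-0.17, adjusted p = 0.0277), and on day 0 with only the groups compared (-0.17, adjusted p = 0.0474).

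Of the kinases, Tyk2 was called on days 1 and 3, Jak1 on days 3 and 6 and Jak2 on no day. Tyk2, which serves the type I receptor, had 40.1, 33.3 and 42.5 CPM under the KO label on day 1 and 57.2, 61.4 and 53.9 CPM under the WT label. The day 3 libraries had 37.7, 35.6 and 38.0 CPM under the KO label and 51.1, 48.2 and 53.3 CPM under the WT label. On both days every library labelled KO was below every library labelled WT.

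The log2 fold change of Tyk2 was -0.58 on day 1 (SE 0.080, edgeR adjusted p = 4.86e-06) and -0.46 on day 3 (SE 0.081, edgeR adjusted p = 7.14e-05). Both calls held under each alternative run and each left-out library, and without KO day 1 replicate 2 the day 1 value was -0.50 (adjusted p = 7.05e-06). On day 6 the groups overlapped, with 49.1, 51.6 and 46.8 CPM under the KO label and 45.0, 45.7 and 49.1 CPM under the WT label, and the difference of 0.08 was not called (95% interval -0.09 to 0.24, edgeR adjusted p = 0.464). In growth medium it was -0.18 (edgeR adjusted p = 0.209).

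Jak1, the kinase shared by both interferon receptors and by gp130, was called lower under the KO label on the later days. Its day 6 libraries had 198, 187 and 186 CPM under the KO label and 239, 212 and 243 CPM under the WT label. The groups did not overlap, and the log2 fold change was -0.28 (SE 0.079, edgeR adjusted p = 0.00567). The day 3 libraries had 182, 196 and 187 CPM under the KO label and 218, 224.5 and 225 CPM under the WT label, again with no overlap. The day 3 difference was -0.24 on the log2 scale (SE 0.079, edgeR adjusted p = 0.0167). It was -0.39 on the TPM scale with 1 added (limma adjusted p = 0.00708), where the median of all genes was -0.08. The edgeR call of day 3 was lost without KO replicate 1 (-0.22, adjusted p = 0.064). On days 0 and 1 Jak1 was not called, at 0.10 and 0.08 (edgeR adjusted p = 0.504 and 0.428), and the day 1 value was -0.03 without KO replicate 2 (adjusted p = 0.782).

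Jak2, which serves the interferon gamma receptor and several hormone receptors, was called on no day. Its log2 fold changes lay between -0.05 and 0.02, with edgeR adjusted p of at least 0.753. The widest 95% interval, on day 0, ran from -0.30 to 0.23. On day 1 the library labelled KO with the highest Jak2, at 43.4 CPM, was replicate 2, and without it the value was -0.17 (adjusted p = 0.160).

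Socs1, the inhibitor that acts on the kinase domains themselves, was lower on day 1 under the KO label. Its libraries had 18.1, 8.21 and 17.3 CPM under that label and 25.0, 22.7 and 25.1 CPM under the WT label. All 3 were below the lowest library labelled WT, and replicate 2 was far below the others. The log2 fold change was -0.74 (SE 0.184, 95% interval -1.12 to -0.36, edgeR adjusted p = 0.00235), and without KO replicate 2 it was -0.48 (adjusted p = 0.00386). Socs1 was not called on the other days, where its values were -0.04, -0.05 and -0.01 on days 0, 3 and 6, with 95% intervals reaching from -0.46 to 0.39.

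Socs3 was the only gene of the set whose difference between genotypes was called in both directions on different days. The growth-medium libraries had 49.7, 39.9 and 38.6 CPM under the KO label and 60.5 and 54.5 CPM under the WT label. Day 1 brought 66.1, 48.7 and 68.1 CPM under the KO label and 81.1, 82.3 and 76.3 CPM under the WT label. By day 6 the KO label had 124, 109 and 111 CPM and the WT label 83.5, 84.1 and 79.6 CPM. The libraries labelled KO were the lower group on days 0 and 1 and the higher group on day 6, with no overlap on any of these days.

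The log2 fold change of Socs3 was -0.43 on day 0 (SE 0.119, edgeR adjusted p = 0.0133), -0.39 on day 1 (SE 0.105, edgeR adjusted p = 0.00456) and 0.48 on day 6 (SE 0.104, edgeR adjusted p = 0.000686). The day 0 call was lost without WT replicate 1 (-0.33, adjusted p = 0.196), KO replicate 2 (-0.38, adjusted p = 0.0604) or KO replicate 3 (-0.36, adjusted p = 0.0729), and on the TPM scale (-0.34, limma adjusted p = 0.194). On the TPM scale the day 6 value was 0.31 (limma adjusted p = 0.0867 with 1 added). That scale moved the median of all genes by -0.10 on day 6 with 1 added and by -0.12 with 0.1 added. On day 3 Socs3 was not called (0.21, edgeR adjusted p = 0.103). It was called higher with only the groups compared (0.18, adjusted p = 0.0308), and on the TPM scale the day 3 value changed sign (-0.0095 with 1 added). Without KO day 1 replicate 2 the day 1 value was -0.27 (adjusted p = 0.0162). Beside the results of days 3 and 6 stood the myoblast and myotube markers. Their summed level was 4645 to 7330 TPM under the KO label and 3295 to 3365 TPM under the WT label on day 3, and 11394 to 12850 against 2759 to 3183 TPM on day 6. In growth medium it was 1368 to 1423 against 1010 to 1019 TPM, so it also moved with the days compared next. The part of these markers in the results between genotypes and over time was not tested.

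The series also compared each day with growth medium within a genotype. Under the WT label 8 of the 9 genes were called on day 1 (8 higher, 0 lower), beside 54.7% of all genes (27.1% higher, 27.6% lower). On day 3 it was 7 (7 higher, 0 lower), beside 58.2% (29.2% higher, 29.0% lower), and on day 6 it was 8 (7 higher, 1 lower), beside 63.6% (32.6% higher, 31.1% lower). Under the KO label 7 were called on day 1 (7 higher, 0 lower), beside 52.3% (27.2% higher, 25.2% lower). On day 3 it was again 7 (7 higher, 0 lower), beside 57.6% (30.4% higher, 27.2% lower), and on day 6 it was 7 (6 higher, 1 lower), beside 70.0% (36.6% higher, 33.5% lower). The gene called lower was Socs1, and the comparisons within a genotype share their day 0 libraries.

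Among the receptor chains, Ifngr1 and Ifngr2 were higher than on day 0 in all 6 comparisons, with log2 fold changes of 0.41 to 0.77 for Ifngr1 and 0.43 to 0.88 for Ifngr2. Ifnar2 was highest on day 6, at 0.51 labelled WT (SE 0.096, edgeR adjusted p = 7.26e-05) and 0.66 labelled KO (SE 0.085, edgeR adjusted p = 3.44e-07). On the TPM scale with 1 added the WT value was 0.81. Its smaller WT values on days 1 and 3 (0.24 and 0.26, and 0.46 and 0.51 on that TPM scale) lost their call in 4 and 5 of 14 alternatives. These included leaving out either WT day 0 library (day 1: 0.28 and 0.25; day 3: 0.29 and 0.27), WT day 1 replicate 3 (0.23), or WT day 3 replicate 1 or 3 (0.23 and 0.25), and for both days the fit with no filter (0.23 and 0.23). Under the KO label the day 1 value of Ifnar2 was not called (0.12, edgeR adjusted p = 0.272) but was with library size only (0.20) and on the TPM scale (0.27 with 1 added), and it was 0.19 without KO day 1 replicate 2 (adjusted p = 0.0504). Ifnar1 had another course. Its mean rose from 76.2 CPM on day 0 to 96.9 on day 1 under the WT label and from 67.5 to 90.9 under the KO label (0.35 and 0.43, edgeR adjusted p = 0.000566 and 1.57e-05), and on day 6 it was 75.1 and 67.5 CPM. The day 3 value of Ifnar1 was called labelled KO (0.20, edgeR adjusted p = 0.0178), a call lost without KO day 0 replicate 1 or 3 (0.17 and 0.18), without KO day 3 replicate 1 (0.17) or with no filter (0.14, adjusted p = 0.203), and not labelled WT (0.16, edgeR adjusted p = 0.0814). The WT value was called in 8 of 14 alternatives, among them RLE (0.18), DESeq2 (0.18), log2(TPM + 1) with limma (0.33, adjusted p = 0.0195) and without WT day 3 replicate 2 (0.22).

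Tyk2 had the largest early change of the kinases. Its log2 fold change on day 1 was 1.06 under the WT label (SE 0.093, edgeR adjusted p = 1.84e-09) and 0.66 under the KO label (SE 0.083, edgeR adjusted p = 4.83e-07). On day 6 the order was the other way, at 0.75 labelled WT and 1.01 labelled KO, both called, and the difference between these courses was itself not called (0.26, edgeR adjusted p = 0.190). Jak2 was higher at all 6 comparisons, by 0.58 to 0.77. Jak1 rose under the WT label on all 3 days, by 0.29, 0.41 and 0.47, the first of which was lost without WT day 0 replicate 2 (0.22, adjusted p = 0.138). In those labelled KO it was called on day 1 (0.27, edgeR adjusted p = 0.00597, or 0.41 on the TPM scale with 1 added), which did not pass when the fit held only these groups (0.28, adjusted p = 0.0687), and stood at 179, 188 and 190.3 CPM on days 0, 3 and 6.

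The inhibitors were called in opposite directions on day 6. Socs3 rose on every day, by 0.47, 0.49 and 0.52 under the WT label (0.72, 0.73 and 0.79 on the TPM scale with 1 added) and by 0.51, 1.13 and 1.42 under the KO label. The KO value on day 6 corresponds to a mean of 42.7 ± 6.11 CPM in growth medium and 115 ± 7.73 CPM on day 6 (SD, n = 3 each; edgeR adjusted p = 3.94e-11). Socs1 fell on day 6 by 0.51 under the WT label (SE 0.207, edgeR adjusted p = 0.0356) and by 0.48 under the KO label (SE 0.188, edgeR adjusted p = 0.0265). Both calls were lost on the TPM scale (-0.33 and -0.30 with 1 added), the WT call also with library size only (-0.43, adjusted p = 0.0587) and with a mean count from 50 up (-0.45, adjusted p = 0.0529), and one or the other without any 1 of several libraries: WT day 0 replicate 1 or 2 (-0.40 and -0.58), WT day 6 replicate 1 or 3 (-0.43 and -0.36), KO day 0 replicate 2 or 3 (-0.48 and -0.45) and KO day 6 replicate 1 or 2 (-0.38 and -0.46). On day 1 Socs1 was not called in either genotype (0.38 labelled WT, -0.32 labelled KO), and the KO value rested on KO replicate 2, the library that stood apart. Without that library the KO value was -0.03 (adjusted p = 0.879), and without KO day 1 replicate 1, which keeps it, -0.51 (adjusted p = 0.0352). With only the groups compared the WT value was called (adjusted p = 0.00142). On day 3 Socs1 was called in neither genotype (-0.29 labelled WT, -0.30 labelled KO), but in both with only the groups compared (adjusted p = 0.0158 and 0.024).

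An interaction term compared the time course of each gene between the genotypes. On day 1, 0 of the 9 genes were called by edgeR, beside 3.95% of all genes (2.64% higher, 1.31% lower), and DESeq2 called 1 (Tyk2, -0.43, adjusted p = 0.0208). At an unadjusted p under 0.05 the edgeR interaction held 2 of the 9 genes and 2559 of all genes. The values were -0.39 for Tyk2 (SE 0.124, edgeR adjusted p = 0.0797) and -0.71 for Socs1 (SE 0.277, edgeR adjusted p = 0.170). Without KO day 1 replicate 2 the values were -0.34 for Tyk2 (adjusted p = 0.0664) and -0.46 for Socs1 (adjusted p = 0.163), neither called. The Tyk2 value also passed the threshold with a mean count from 50 up (-0.44, adjusted p = 0.0384) and without KO day 1 replicate 3 (-0.47, adjusted p = 0.0249).

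On day 3, 1 of the 9 genes was called, beside 10.7% of all genes (6.65% higher, 4.06% lower). This was Socs3, whose change since growth medium was greater by 0.64 under the KO label (SE 0.158, edgeR adjusted p = 0.00887). It was lost without WT day 0 replicate 1 (0.51, adjusted p = 0.0944), which leaves 1 library in that group, assumed to vary like the others, and on the TPM scale (0.33, limma adjusted p = 0.407). Jak1 was not called on day 3 (-0.34, edgeR adjusted p = 0.0678) but was in 6 of 20 alternatives, among them DESeq2 (-0.39, adjusted p = 0.0147) and without WT day 0 replicate 1 (-0.48, adjusted p = 0.0465) or KO day 0 replicate 3 (-0.40, adjusted p = 0.037). Tyk2 was not called (-0.27, edgeR adjusted p = 0.179) but was with only the groups compared (-0.32, adjusted p = 0.0243).

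On day 6, 2 of the 9 genes were called, beside 13.0% (7.54% higher, 5.42% lower). Socs3 had 0.91 (SE 0.158, edgeR adjusted p = 0.000283), which was called under each alternative, and Jak1 had -0.39 (SE 0.119, edgeR adjusted p = 0.0329). The Jak1 call was lost in 9 of 20 alternatives, including without WT day 0 replicate 2 (-0.31, adjusted p = 0.206), KO day 0 replicate 1 or 2 (-0.39 and -0.38) and KO day 6 replicate 2 or 3 (both -0.37). Ifngr2 was not called (0.31, edgeR adjusted p = 0.128) but was without WT day 6 replicate 2 (0.41, adjusted p = 0.0268).

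Taking the 8 groups by mean CPM, Ifnar1 and Tyk2 were highest in WT day 1, as was Socs1. Ifnar2 and Socs3 were highest in KO day 6, and so was Ifngr2, whose KO day 6 libraries overlapped those of WT day 1, the next group, and which by TPM was highest in WT day 6 (57.2 against 56.9 TPM). Ifngr1, Jak1 and Jak2 were highest in WT day 6. For Tyk2 the order was WT day 1, WT day 3, KO day 6, WT day 6, KO day 1, KO day 3, WT day 0 and KO day 0. The neighbours in that order did not overlap between WT day 1 and WT day 3, between WT day 6 and KO day 1, between KO day 3 and WT day 0 and between the day 0 groups. For Socs3 the order ran KO day 6, KO day 3, WT day 6, WT day 3, WT day 1, KO day 1, WT day 0 and KO day 0, with gaps after KO day 6, KO day 3, WT day 1 and WT day 0. By TPM, Socs3 in KO day 3 (69.1 TPM) stood below WT day 6 and WT day 3 (72.3 and 69.5 TPM) and overlapped its neighbours. For Ifngr1 the CPM order ran WT day 6, WT day 3, KO day 3, WT day 1, KO day 6, KO day 1, WT day 0 and KO day 0, with gaps after WT day 3, KO day 1 and WT day 0. For Socs1 it ran WT day 1, WT day 0, KO day 0, WT day 3, KO day 3, KO day 1, WT day 6 and KO day 6, with gaps after WT day 1 and KO day 0 only. Jak1 had no gap between any neighbours in its order, and Jak2 had 1, between WT day 1 and the day 0 groups.

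The genes whose log2 CPM followed a member most closely over the 23 libraries were found by Pearson's r, as a description; the libraries share their days and genotypes. Socs3 was followed most closely by Btbd17 (r = 0.96), Ifngr2 by Nol3 (0.97) and Ifngr1 by Ghr, the growth hormone receptor (0.96). Ifnar2 had Pgam2, the muscle phosphoglycerate mutase (0.95), Ifnar1 had Eif2ak3, a kinase of the unfolded protein response (0.95), and Jak2 had Ccpg1 (0.94). Jak1 had Fndc3a (0.94), and Socs1 had the lowest of these leading values (Rela, 0.90). Within the set, r was 0.91 between Tyk2 and Ifngr2 and -0.51 between Socs1 and Jak2.

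The signal readout was listed with the rise of its genes already known from these data. Oas2 and Mx1, with at most 2 and 3 counts in any library outside KO days 3 and 6, passed the filter through those groups alone. Cmpk2 and Rsad2, with at most 4 and 9 counts in any library labelled WT, passed it through libraries labelled KO. The counts, shares and medians of the signal readout were therefore fixed by the choice of genes, and nothing is read from them. On day 6, 17 of its 18 genes were called and all 17 were higher under the KO label, with a median log2 fold change of 4.28. On day 3, 15 were called (14 higher, 1 lower), with a median of 2.87, or 2.73 with genes near 0 counts at their lower bound. The shares called were 94.4% on day 6 and 83.3% on day 3, beside 42.9% and 43.2% of all genes. In growth medium 6 were called (2 higher, 4 lower), 33.3% beside 17.5% of all genes. On day 1 it was 8 (3 higher, 5 lower), 44.4% beside 42.2% of all genes.

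Irf9, the DNA-binding subunit of the complex that recognises the ISRE, had a mean of 31.0 ± 1.82 TPM under the KO label on day 6 and 6.59 ± 0.84 TPM under the WT label (SD, n = 3 each). Isg15 had 205 ± 31.0 against 13.0 ± 1.66 TPM on that day, but was lower under the KO label on days 0 and 1 (log2 fold changes -1.76 and -1.33, edgeR adjusted p = 0.0006 and 0.000609). The 3 largest fitted values were those of Oas2, an RNA-sensing synthetase, Cmpk2, a mitochondrial nucleotide kinase, and Mx1, an antiviral GTPase, all set against WT libraries with at most 2 counts. Against a floor of 3 counts per library these were at least 448-fold, 152-fold and 29.9-fold higher. Mx1 is thus not shown to be among the 3 largest: Ifit3, named after its values were seen, had a mean of 191 CPM against 1.43 CPM (log2 fold change 7.05, edgeR adjusted p = 1.65e-16). Psmb8, an immunoproteasome subunit, was the only gene of the list not called on day 6 (log2 fold change -0.23, edgeR adjusted p = 0.673) and was the 1 called lower on day 3 (-2.45, edgeR adjusted p = 0.00012). It was also called lower on days 0 and 1, and it is named after its values were seen. Among the immune markers, summed levels were 25.4 to 28.1 TPM under the KO label on day 6 and 22.9 to 26.3 TPM under the WT label. Of these Cd68, a lysosomal protein of macrophages, was 16.3 TPM against 5.58 TPM on average, while Cd14 (log2 fold change -0.70, edgeR adjusted p = 0.000124) and Csf1r (-2.04, edgeR adjusted p = 5.64e-05) were lower, Itgam was not called (0.77, edgeR adjusted p = 0.300) and Adgre1 was at 0; their part in the result was not tested. Fewer cells of a type and less RNA per cell cannot be told apart in bulk libraries.

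**Figure D4:**
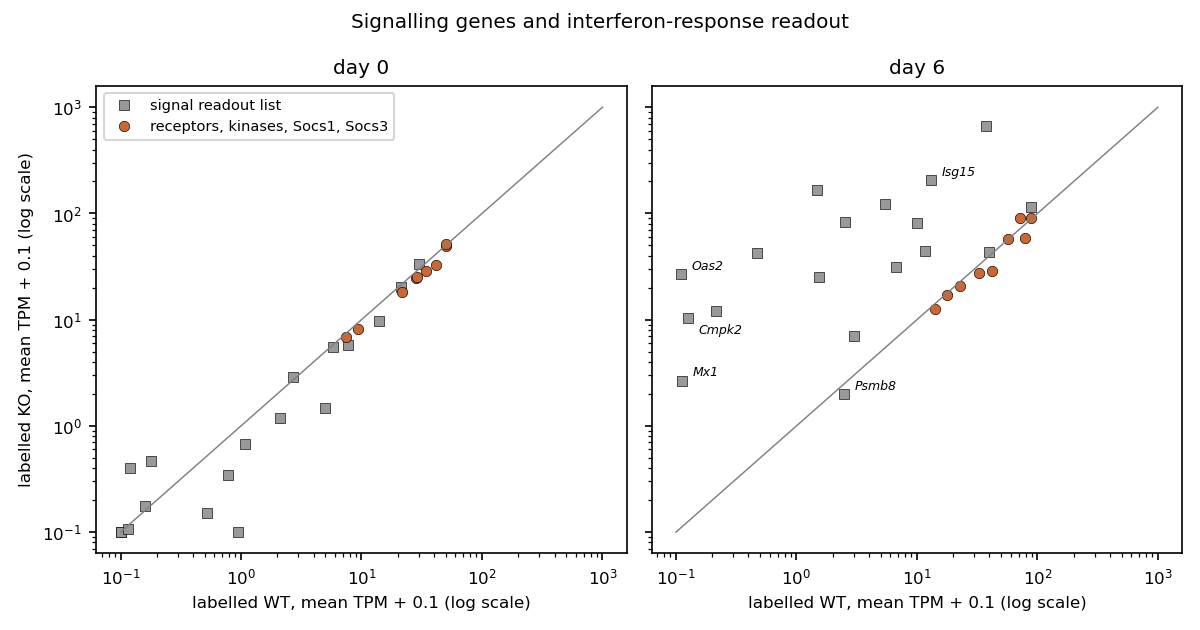
Mean TPM plus 0.1 in the groups labelled KO (vertical log axis) against those labelled WT (horizontal log axis) on days 0 and 6, for the 9 expressed members (circles) and the 18 signal readout genes (squares); the line marks equal levels. On day 6 the circles lie near the line. The signal readout genes were listed with their rise already known, so nothing is read from the place of the squares.

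In a list of 18 further Jak kinases and negative regulators, 10 of 17 tested genes were called on day 6 (5 higher, 5 lower), 58.8% beside the 42.9% of all genes, with a median log2 fold change of 0.00. The tested, called and higher counts include Usp18, so nothing is read from this share. Usp18, which displaces Jak1 from Ifnar2 and so blocks the type I receptor, had 834 to 1205 counts per library under the KO label on day 6 and 4 or 5 under the WT label. On day 3 it had 95 to 247 counts under the KO label and 1 to 4 under the WT label. With at most 5 counts in every library outside KO days 3 and 6, Usp18 passed the filter through those groups alone, so these values are a description with no test. Ptpn6, a phosphatase that acts on receptor-bound kinases, was higher on day 6 by 1.41 (SE 0.245), and Cish, an inhibitor induced by Stat5, was lower by -1.20 (SE 0.274, edgeR adjusted p = 0.00104). Socs2, which restrains growth hormone signalling and is named after its values were seen, was at 65.3 ± 1.85 CPM labelled KO against 108 ± 7.80 labelled WT on day 6 (log2 fold change -0.73, edgeR adjusted p = 8.91e-08). It was lower on day 3 too (-0.45), not called on day 1 (-0.04), and the other way in growth medium, at 162, 172 and 179 CPM labelled KO against 115 and 117 labelled WT with no overlap (0.56, edgeR adjusted p = 6.63e-05).

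**Figure D5:**
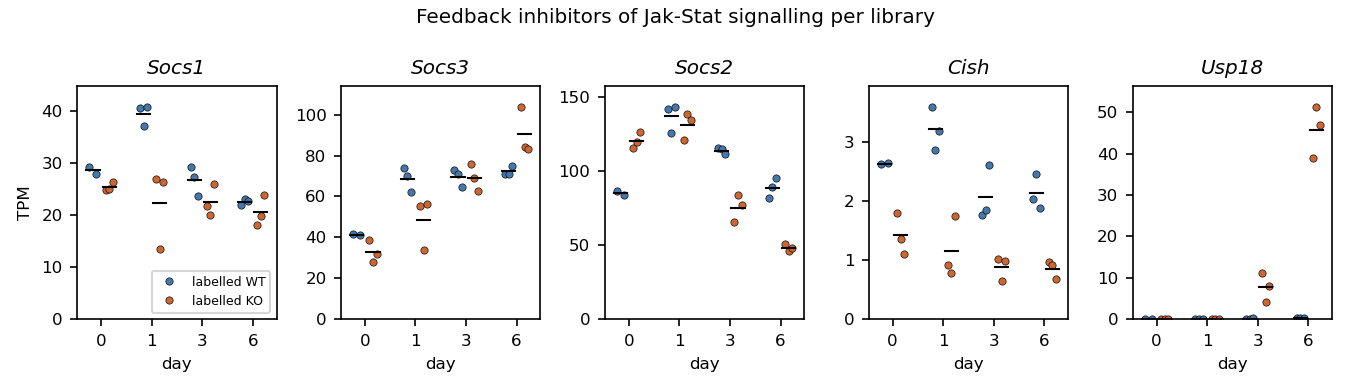
TPM per library (vertical axes, each from 0) by day (horizontal axis) for 5 feedback inhibitors; points are libraries labelled WT (blue) or KO (orange) and bars are group means. On day 6 Usp18 and Socs3 are higher and Socs2 and Cish lower under the KO label, while the Socs1 groups overlap.

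Of 19 other receptors that signal through Jak kinases, 15 were tested and 10 were called on day 6 (4 higher, 6 lower), 66.7% beside the 42.9% of all genes, with a median log2 fold change of -0.13. The tested, called and lower counts include Lepr, so nothing is read from this share. Il2rg, the chain common to several interleukin receptors, had the largest difference, at 10 to 16 counts labelled KO against 160 to 199 labelled WT (log2 fold change -3.79, SE 0.224, edgeR adjusted p = 2.43e-12). Lepr, the leptin receptor, had -2.08 on at most 18 counts per library, with 10 or more counts under the WT label only, so its value is a description, and Ghr had -1.03 (SE 0.087, edgeR adjusted p = 1.13e-09). Il6st, the gp130 chain through which Socs3 acts and named after its values were seen, was at 210.1 ± 15.2 CPM labelled KO against 111 ± 17.0 labelled WT (0.92, edgeR adjusted p = 7.12e-08). Il10rb, which lies between Ifnar2 and Ifnar1 on chromosome 16, was called on no day and had 28.0 against 28.1 CPM on day 6.

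Of 9 cytokines that use gp130, 7 were tested and 3 were called on day 6 (1 higher, 2 lower), a share of 42.9% that equals the 42.9% of all genes and is no result about the list, with a median log2 fold change of -0.00. Il6 was higher, at 52 to 97 counts labelled KO against 12 to 16 labelled WT (log2 fold change 2.45, SE 0.377, edgeR adjusted p = 1.25e-05). Lif, the leukaemia inhibitory factor, was lower (-0.37, SE 0.132, edgeR adjusted p = 0.0283). On day 3 the Il6 difference of 0.82 was not called (edgeR adjusted p = 0.102).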

How the data were processed

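Poly(A) RNA of 23 C2C12 libraries was measured. The authors deposited 2 gene tables with all libraries as columns: estimated counts, given as whole numbers, and TPM. Per the submitters' processing notes, Bowtie2, RSEM and mm10 were used; versions, annotation and use of strand are not given in the sources used here. Estimated counts (rounding changed none) were tested with edgeR 4.0.16 in R 4.3.3: filterByExpr (minimum count 10, total 15) left 14187 of 32793 genes, then TMM scaling, 1 group-means model over the 23 libraries and 13 contrasts, quasi-likelihood F-tests, Benjamini-Hochberg adjustment over all tested genes in a contrast and a threshold of 0.05. Standard errors and 95% intervals derive from the F statistic. On the KO against WT contrast of day 6, simulated over 13971 genes, 95.5% of 200 changed genes were recovered (82% at 1.5-fold) with 4.02% false calls. Those 200 genes were drawn from the better expressed genes and changed by 1.5-, 2-, 4- or 8-fold. In the data 42.9% of genes were called on that contrast, and most differences of the members were smaller than 1.5-fold. Recovery and false calls under those conditions were not simulated.

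The 10 members and all lists were chosen with earlier results of these data known. From each further list the 3 genes with the largest called change on day 6 are named, except that some results are not reported here. Alternatives were DESeq2 1.42.0, RLE or library-size scaling, omitting the filter or keeping genes with a mean count from 50 up, limma 3.58.1 on log2(TPM + 1) and log2(TPM + 0.1), only the groups compared, a replicate block, and omission of each library. Promoters are RefSeq windows on GRCm38.p6, the assembly of mm10. Protein sequences were not used here.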

Additional observations from a re-analysis of the deposited data

Results flagged for a closer look

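By the interaction term of edgeR, the time course of 2 of the 9 expressed genes differed between the genotypes: 1 of 9 on day 3, beside 10.7% of all genes, and 2 of 9 on day 6, beside 13.0%. For Socs3 the change was greater under the KO label by 0.64 on day 3 and by 0.91 on day 6, on the log2 scale. For Jak1 it was -0.39 on day 6, the libraries labelled WT rising and those labelled KO standing near their growth-medium level. The Jak1 value lost its call in 9 of 20 alternatives and the Socs3 value of day 3 in 3.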

How the results depend on the processing

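Of 1450 values of single genes over the alternatives, 1313 kept their direction and their side of the threshold, 58 lost a call, 53 gained one and 26 changed sign, none of the last from a called value. Between genotypes the calls of Tyk2 (days 1 and 3), Socs1 (day 1), Socs3 (day 1), Ifngr1 (day 6) and Jak1 (day 6) held throughout. The counts of called members below are no result about the set, since the share of all genes called moved too: with only the groups compared it went from 17.5% to 28.5% on day 0, from 42.2% to 28.0% on day 1, from 43.2% to 54.1% on day 3 and, for the interaction on day 3, from 10.7% to 19.2%. The number of called members was 1 on day 0 and became 2 with library size only and 3 with only the groups compared (0 to 1 with a library left out). On day 1 it was 4 (6 on both TPM scales, 5 with RLE, library size, a mean count from 50 up and DESeq2, 3 with only the groups compared), on day 3 4 (5 with the same 4 settings, 6 with only the groups compared) and on day 6 3 (4 with library size, 2 on both TPM scales, 3 to 5 with a library left out). For the interaction on day 1 it was 0, and 1 with a mean count from 50 up and with DESeq2 (0 to 1 with a library left out). On day 3 it was 1, and 2 with RLE, with a mean count from 50 up and with DESeq2, 3 with only the groups compared and 0 on both TPM scales (1 to 2 with a library left out). On day 6 it was 2, and 1 with library size only, with no filter and on both TPM scales (1 to 3 with a library left out). Changed signs: Ifnar2 on day 0 (-0.0535 with library size, -0.00851 and -0.00869 on TPM), Jak2 on day 1 (-0.0146 with library size, -0.0183 with a mean from 50 up, -0.0300 and -0.0338 on TPM), Socs3 on day 3 (-0.0095 and -0.0096 on TPM), Ifngr2 on day 6 (-0.0076 and -0.0077 on TPM) and Tyk2 on day 6 (-0.0510 and -0.0533 on TPM). With a library left out the ranges crossing 0 were -0.0061 to 0.036 for Ifnar2 on day 0, -0.18 to 0.15, -0.17 to 0.12 and -0.15 to 0.063 for Jak2 on days 0, 1 and 6, -0.097 to 0.047, -0.17 to 0.021 and -0.14 to 0.12 for Socs1 on days 0, 3 and 6, and -0.029 to 0.15 for Jak1 on day 1. The cause was not tested.

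Among all called genes the share higher under the KO label was 42.1%, 54.4%, 55.5% and 51.4% on days 0, 1, 3 and 6. It was 29.5%, 47.2%, 47.3% and 42.0% with library size only, which changes the scaling alone, and 31.3%, 43.3%, 34.3% and 34.9% with limma on log2(TPM + 1), which changes the test, unit and offset too. On log2(TPM + 0.1) the share of called genes higher than on day 0 went from 49.6% to 61.2%, 50.1% to 64.6% and 51.2% to 63.9% on days 1, 3 and 6 under the WT label and from 51.9% to 66.3% on day 1 under the KO label. For the interactions on days 1 and 3 the share of positive values among called genes was 66.8% and 62.1%, 67.3% and 63.8% with library size only, 57.4% and 51.6% with RLE, and 51.4% and 45.2% with limma on log2(TPM + 1). On log2(TPM + 0.1) the median of all genes was -0.11 on day 3 and -0.12 on day 6, and 0.20 for WT day 6 over day 0. With only the groups compared, calls over all genes were 3607 in place of 5981 on day 1, and for the interaction 239 in place of 560 on day 1 and 2613 in place of 1519 on day 3. Equal replicate numbers did not deviate together (mean correlation -0.094 to 0.049). With the replicate block 1, 4, 4 and 3 members were called on days 0, 1, 3 and 6 and 0, 1 and 2 in the interactions, as without it, among 2221, 5833, 6023 and 5959 genes. Without a WT day 0 replicate the remaining library was assumed to vary like the other groups. A ligand listed at 0 may still have had up to 3 counts a library at this depth.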
